A study of Mus musculus with 7 samples.

Results

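The genes described here are 8 markers of progenitor, immature and dedifferentiated beta cells, chosen by symbol from the 23329 rows of the deposited count table: Neurog3, Sox9, Hes1, Aldh1a3, Gast, Cck, Cd81 and Oat. Every one of the 8 was found in the table. Of these, 6 had enough reads to be tested and 2, Neurog3 and Aldh1a3, did not pass the filter on low counts. The comparison asks whether IL1B moved them in a beta-cell line.

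The cells were Beta-TC6, an insulin-secreting line derived from a mouse beta-cell tumour driven by a viral oncogene under an insulin promoter, so the samples are 1 transformed line and not islets. The labels give genotype WT for all 7 samples, with treatment WT-IL1B in 3 (interleukin-1 beta, an inflammatory cytokine) and WT-Veh in 4 (vehicle). Cells of both groups were grown in DMEM with 15% FBS and received a forskolin pulse of 10 µM for 1 h, which raises cAMP and aligns the circadian clocks of the cells. No source used here states the dose or duration of IL1B or the time of harvest.

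A mature beta cell is made in the embryo from a SOX9-positive progenitor in which Notch signalling, through the repressor HES1, holds back the endocrine switch NEUROG3. Under metabolic or inflammatory stress, beta cells can lose mature genes and regain some genes of that earlier state, a change called dedifferentiation. Aldh1a3 is a widely used marker of dedifferentiated beta cells in diabetic mouse islets, and the gut hormone genes Gast and Cck, the tetraspanin gene Cd81 and the mitochondrial enzyme gene Oat are reported among genes of immature or stressed beta cells.

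None of the 6 tested genes passed the threshold in either direction (edgeR quasi-likelihood test, Benjamini-Hochberg adjustment over 12480 genes). Over all tested genes 7.76% were higher and 3.25% lower with IL1B, so a set of 6 with no call lies near what this background gives and is not a result about these genes as a group. DESeq2 and limma-voom also called 0 of the 6, and 0 of the 6 reached an unadjusted p under 0.05 by any of the 3 tools, against 22.6% of all tested genes by edgeR. The vehicle and IL1B libraries overlapped for each of the 6, while the groups did not overlap in 21% of all tested genes. The median absolute log2 fold change was 0.113 over the 6 and 0.114 over all tested genes. What the data do give is how far each gene could have moved, and that differed widely with its abundance: Cck, Oat and Cd81 were measured closely, and Sox9, Hes1 and Gast loosely.

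**Figure D1:**
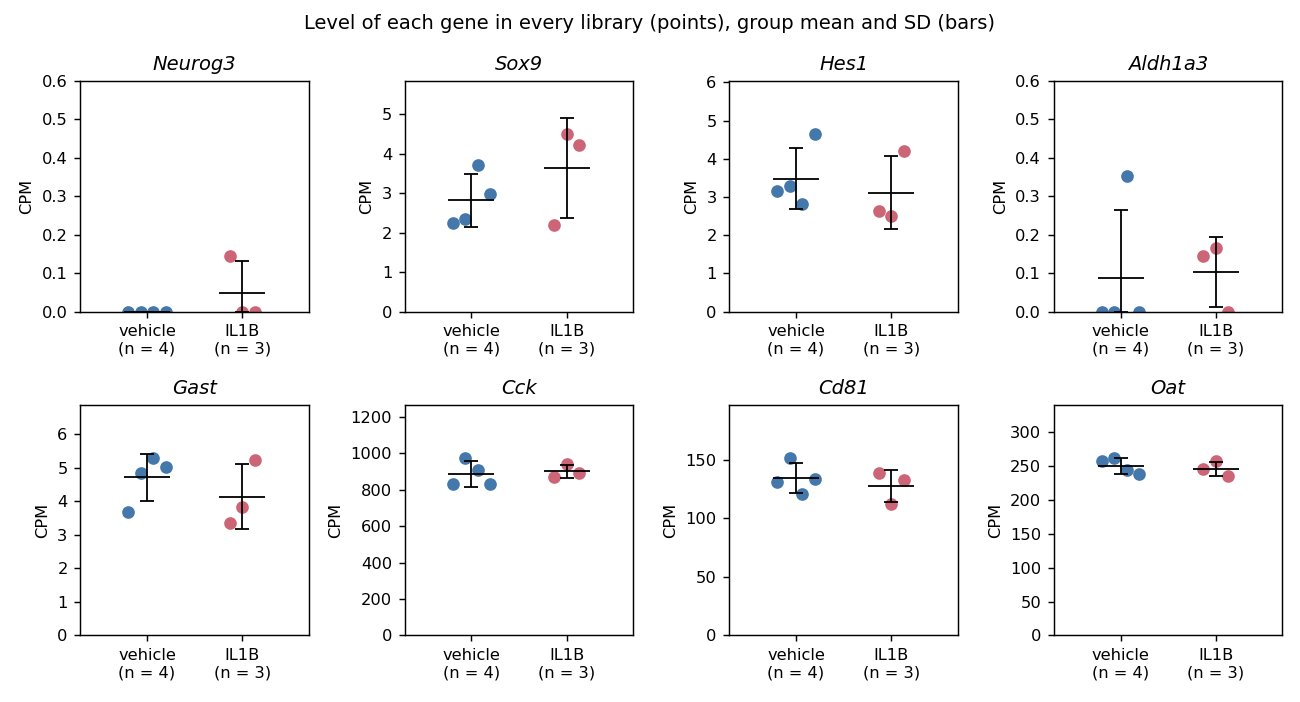
Level of the 8 genes in CPM (a gene's counts in each 1000000 counts; vertical axis from 0) in the 4 vehicle and 3 IL1B libraries; each point is a library, and the horizontal bar and whiskers give the group mean and SD, with whiskers stopped at 0. Vehicle and IL1B points overlap for the 6 tested genes, and Neurog3 and Aldh1a3 rest on 0 to 2 counts per library.

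Libraries held 5335607 to 7513934 counts, and levels are given in CPM after TMM scaling, which corrects library sizes for composition. At this depth 3 counts, taken as the floor of detection, were 0.395 to 0.557 CPM in a library. Nothing in the labels ties the replicates to separate cultures, and the spread that p-values measure is that between these libraries, possibly a technical one. Within groups the second vehicle library and the second IL1B library (numbers as in the table) stood apart. In the second vehicle library, the deviation of a gene from its group mean went down with exon length (Spearman's rho -0.496 across genes), whereas rho was 0.193 to 0.275 in vehicle libraries 1, 3 and 4. The chi-square per degree of freedom between libraries was 3.82 to 4.88 for pairs with the second vehicle library, against 1.52 to 1.6 among the others, and 4.2 and 2.87 for pairs with the second IL1B library, against 1.69. Where a call depended on these libraries, the value without them is given beside it. The inhibitor gene Nfkbia, a target of NF-kB, the factor that IL-1 signalling switches on, rose from 31.1 ± 1.49 (SD, n = 4) to 479 ± 18.4 CPM (SD, n = 3), a check of the treatment labels.

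The transcription factors of the progenitor state were scarce. Neurog3, the switch gene that commits a progenitor to the endocrine fate, lies on chromosome 10 (62133090 to 62134763, GRCm38). It had 0 counts in each of the 4 vehicle libraries, which allows up to 0.12 CPM over that group, and 1 count in the first IL1B library with 0 in the other two. No fold is given, since both groups lie under the floor of 3 counts. Its exons share 273 bases with those of Fam241b on the other strand, and without a stated strand setting reads from there could not be told apart. An exact two-sided permutation test of the 7 libraries gave p = 0.429, where the smallest p this design allows is 0.0286.

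Sox9, the factor that maintains pancreatic progenitors and duct cells, lies on chromosome 11 (112782224 to 112787760). Its vehicle libraries read 2.24, 2.35, 3.70 and 2.97 CPM, and its IL1B libraries 2.19, 4.49 and 4.22 CPM. IL1B libraries 2 and 3 were above all vehicle libraries, and IL1B library 1 was below them all. These values rest on 15 to 27 counts per library. The fit put the log2 fold change at 0.37 (SE 0.29, 95% interval -0.24 to 0.98, edgeR adjusted p = 0.511). In linear terms the interval runs from 0.846 to 1.97 times the vehicle level. At this standard error an estimate had to reach 1.88-fold to be called, which is not a detection limit for the true change. Without the first IL1B library the log2 fold change was 0.65, and without the second library of both groups it was 0.11; neither passed (edgeR adjusted p = 0.166 and 0.893).

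Hes1, the Notch-induced repressor of Neurog3, lies on chromosome 16 (30064384 to 30067796). Vehicle libraries read 3.16, 3.29, 2.82 and 4.64 CPM and IL1B libraries 2.62, 2.49 and 4.22 CPM. The fourth vehicle and the third IL1B library were well above the rest of their groups, and the groups overlapped. The log2 fold change was -0.16 (SE 0.27, 95% interval -0.72 to 0.41, edgeR adjusted p = 0.803), or 0.605 to 1.33 times the vehicle level. Leaving out the fourth vehicle library put it at -0.0054, and leaving out the third IL1B library at -0.42 (edgeR adjusted p = 0.995 and 0.524). It was -0.029 without IL1B library 2 and -0.051 without the second library of both groups.

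Aldh1a3 encodes a retinaldehyde dehydrogenase, the enzyme that makes retinoic acid, and lies on chromosome 7 (66390890 to 66427517). The third vehicle library had 2 counts and the other vehicle libraries 0. IL1B libraries 1 and 2 had 1 count each and IL1B library 3 had 0. In CPM the highest library was 0.353. The sums of 2 counts in vehicle and 2 in IL1B correspond to exact 95% Poisson intervals of 0.00967 to 0.289 and 0.0129 to 0.384 CPM, which cover counting error only. The gene was close to undetected with or without IL1B, and no fold is given. The exact two-sided permutation test over the 7 libraries gave p = 1.

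The hormone genes of the set, Gast and Cck, encode gastrin and cholecystokinin, related peptides that end in the same amidated residues and share receptors. They stood far apart here: per kilobase of merged exon, Cck was 58.2 to 91.6 times Gast across the 7 libraries (median 70.7). The RefSeq promoter table (GRCm38.p6) held 5 of the 8 genes, and the 250 bases before the start sites of the hormone pair are shown because they are the related pair with the widest gap in level. The Cck window is chr9:121495695-121495944 on the minus strand and the Gast window chr11:100334157-100334406 on the plus strand, both printed 5′ to 3′ with the start site just after the last base. Capitals mark the matches to the searched motifs, all in Cck.
Cck: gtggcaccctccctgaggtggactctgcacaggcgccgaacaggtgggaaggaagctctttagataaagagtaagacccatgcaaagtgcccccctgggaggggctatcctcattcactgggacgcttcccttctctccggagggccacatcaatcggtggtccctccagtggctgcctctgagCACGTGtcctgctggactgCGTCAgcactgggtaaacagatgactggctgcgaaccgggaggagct
Gast: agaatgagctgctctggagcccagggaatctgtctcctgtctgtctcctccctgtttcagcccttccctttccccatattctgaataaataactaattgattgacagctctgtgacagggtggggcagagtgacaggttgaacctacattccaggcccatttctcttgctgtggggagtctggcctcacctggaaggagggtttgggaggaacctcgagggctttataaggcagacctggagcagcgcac

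Motifs were searched on both strands: CACGTG, the E-box form that clock factors bind; TGACG, the half-site of the cAMP response element; TGANTCA, the AP-1 site; and the kappaB consensus that NF-kB binds. In the Cck window CACGTG stands from base -66 to -61 before the start site, and TGACG stands on the opposite strand from -47 to -43, where the printed strand reads CGTCA. No searched motif overlapped another. Over all 32851 promoter windows of 250 bases, 6.02% held CACGTG, 17.8% TGACG, 6.75% TGANTCA and 7.25% the kappaB consensus. The windows of Gast, Neurog3, Cd81 and Oat held none of these 4 motifs, and the Cck window held no AP-1 or kappaB match. These are matches of letters, not measured binding sites.

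Cck lies on chromosome 9 (121489824 to 121495694) and was one of the most abundant transcripts of the cells, ranking 77 of 12480 tested genes by mean CPM. Vehicle libraries read 832, 973.5, 908.4 and 828.3 CPM, and IL1B libraries 870.6, 940.8 and 892.4 CPM. The second library was the highest of each group, and every IL1B value fell inside the vehicle range. Means were 886 ± 69.3 CPM (SD, n = 4) and 901 ± 36.0 CPM (SD, n = 3). The log2 fold change was 0.025 (SE 0.061, 95% interval -0.10 to 0.15, edgeR adjusted p = 0.863), which bounds the IL1B level at 0.932 to 1.11 times vehicle. Its sign was not fixed: it was -0.0068 with total-count scaling and 0.076 without the second vehicle library.

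Gast, on chromosome 11 (100334407 to 100336996), had 23 to 31 counts per library. Vehicle libraries read 3.69, 4.85, 5.29 and 5.01 CPM and IL1B libraries 3.35, 3.82 and 5.23 CPM. The first and second IL1B libraries were low, as was the first vehicle library, and the third IL1B library lay among the higher vehicle values. The log2 fold change was -0.18 (SE 0.23, 95% interval -0.66 to 0.30, edgeR adjusted p = 0.712), or 0.634 to 1.23 times the vehicle level. An estimate had to reach 1.64-fold to be called at this standard error. Without the first IL1B library the log2 fold change was -0.041, and without IL1B library 3 it was -0.38 (edgeR adjusted p = 0.945 and 0.488).

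Cd81 and Oat stand for the surface and the metabolism of immature or stressed beta cells. Cd81 encodes a tetraspanin, a membrane protein that organises other receptors, and lies on chromosome 7 (143052739 to 143067934). Vehicle libraries read 131.1, 151.4, 120.9 and 133.3 CPM and IL1B libraries 138.6, 112.4 and 132.3 CPM. The second vehicle library was the highest of the 7 and the second IL1B library the lowest. The log2 fold change was -0.071 (SE 0.081, 95% interval -0.24 to 0.098, edgeR adjusted p = 0.675), so IL1B lay between 0.847 and 1.07 times vehicle. Without the second library of both groups it was 0.076 (edgeR adjusted p = 0.415), and without the second IL1B library alone 0.013, so the direction of this small difference rested on those libraries. Its exons share 104 bases with the antisense transcript R74862.

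Oat, on chromosome 7 (132557478 to 132576398), encodes ornithine aminotransferase, which links ornithine to proline and glutamate in mitochondria. Vehicle libraries read 257.9, 262.1, 244.0 and 237.9 CPM and IL1B libraries 245.2, 257.0 and 236.0 CPM. Both groups spanned almost the same narrow range, with a coefficient of variation of 4.56% in vehicle and 4.28% in IL1B. The log2 fold change was -0.026 (SE 0.059, 95% interval -0.15 to 0.097, edgeR adjusted p = 0.848), or 0.902 to 1.07 times the vehicle level. An estimate of 1.14-fold would have been called at this standard error. A long transcript of Fgfr2 spans the gene but shares no exon base with it.

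Compared per kilobase of merged exon, in vehicle, the levels were 679 ± 53.1 for Cck, 106 ± 4.84 for Oat, 46.6 ± 4.41 for Cd81, 10.2 ± 1.54 for Gast, 1.71 ± 0.393 for Hes1 and 0.681 ± 0.163 for Sox9 (CPM per kilobase, SD, n = 4). Each neighbouring pair in this order was separated in all 7 libraries, with no overlap of values. The order depends on the length used, here 4135 bases for Sox9 and 2037 for Hes1. In CPM, without length, their vehicle libraries overlapped, at 2.24 to 3.70 for Sox9 and 2.82 to 4.64 for Hes1. The narrowest step was Hes1 over Sox9, 2.51-fold in vehicle and 1.74-fold with IL1B by group means, and 1.13-fold in the closest single library. Aldh1a3 and Neurog3 lay below, at 0 to 0.0870 CPM per kilobase in any library.

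After the group means were removed, the genes whose log2 CPM followed each member most closely over the 7 libraries were found among 10901 or 10902 genes of at least 5 CPM. For Cck they were Rpl38 (r = 0.994), Mrpl17 (0.992) and Atp5j2 (0.992), for Oat Nck2 (0.992), Sec22b (0.989) and Nudt18 (0.977), and for Cd81 2810025M15Rik (0.996), Ywhah (0.994) and Cpsf3 (0.994). The best match was r = 0.99 for Sox9 (Slc18a1), 0.985 for Gast (Hmgcll1) and 0.978 for Hes1 (Atpbd4). Each is the highest of all those correlations, over 7 points that share library and depth, and is given as a description.

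**Figure D2:**
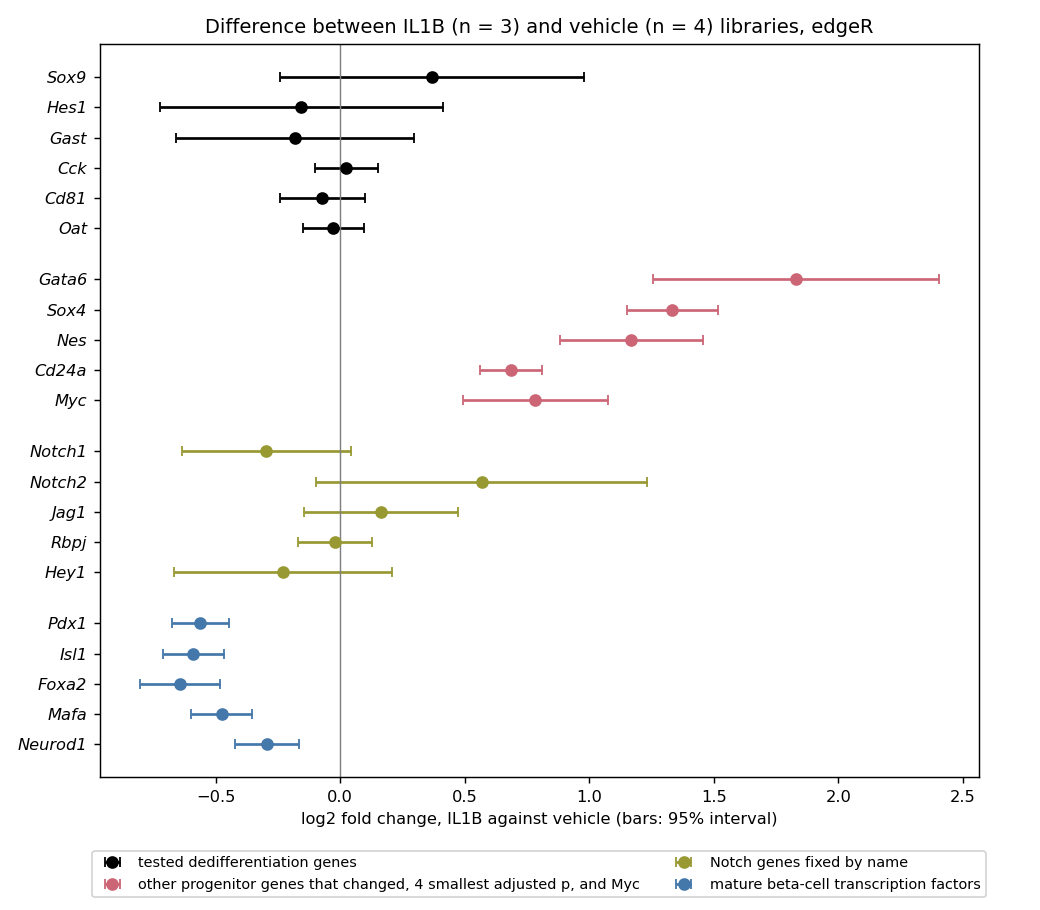
Log2 fold change of IL1B against vehicle (horizontal axis) with 95% intervals from the edgeR fit, for the 6 tested dedifferentiation genes, 5 other progenitor genes that rose, 5 Notch genes fixed by name and 5 beta-cell transcription factors. Every interval of the 6 dedifferentiation genes crosses 0, from 0.37 for Sox9 to -0.18 for Gast, while Gata6 to Myc lie above 0 and Pdx1 to Neurod1 below. Gata6, Sox4, Nes, Cd24a, Isl1 and Foxa2 were drawn because they were called, so their place clear of 0 was fixed by that choice. In the full lists, 19 of 27 tested progenitor genes and 12 of 24 tested mature genes did not pass. Gata6 passed the filter through its IL1B libraries.

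Of 35 further genes listed for the progenitor and dedifferentiated state, 27 were tested and most, 19, did not pass. Another 7 rose (25.9%, against 7.76% of all tested genes) and 1 fell (3.7%, against 3.25%). That 25.9% counts Gata6, which reached the filter's minimum of 1.64 CPM in all 3 IL1B libraries but in only 1 of 4 vehicle libraries. Mycl1, which did not pass, entered the test the same way. The median log2 fold change of the list was 0.055, against -0.0087 over all tested genes. The call counts ranged from 7 to 10 higher and 1 to 2 lower over 15 alternative settings; without the second library of both groups, 2 were lower. DESeq2 called 7 higher and 1 lower, and limma-voom 8 and 1. The difference between this list and the 6 tested members was not tested. Because the list was chosen with earlier results of these data known, its shares are not independent evidence.

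Sox4, a SOX factor of the embryonic pancreas, read 37.4, 42.6, 39.3 and 43.5 CPM in vehicle and 88.7, 104.9 and 113.9 CPM with IL1B, a rise of 2.52-fold (edgeR adjusted p = 1.0e-09; log2 fold change 1.33, SE 0.088). The lowest IL1B library lay far above the highest vehicle library. Gata6, an early pancreatic endoderm factor, read 1.19, 1.25, 1.94 and 1.11 CPM in vehicle and 5.39, 4.32 and 4.89 CPM with IL1B, 3.56-fold higher (edgeR adjusted p = 7.5e-05). It passed the filter through its IL1B libraries: all 3 reached the minimum of 1.64 CPM, but only 1 of 4 vehicle libraries, on 6 to 11 counts each. Nes, which encodes the neural progenitor filament nestin, rose 2.25-fold from 11.9 ± 2.07 to 26.9 ± 4.09 CPM, and Cd24a, a surface glycoprotein of immature cells, 1.61-fold from 245 ± 12.4 to 395 ± 20.8 CPM. Myc, the growth-promoting factor used as a dedifferentiation marker, rose 1.72-fold, Sox11, a relative of Sox4, 1.81-fold and the metallothionein gene Mt2 1.28-fold. Onecut2, a factor active in pancreatic progenitors, fell 1.24-fold from 134 ± 9.70 to 108 ± 7.83 CPM (edgeR adjusted p = 0.0057).

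Several genes of the list fixed by name did not pass. Mycl1 stood at 1.21 ± 0.540 and 2.55 ± 0.0666 CPM (edgeR adjusted p = 0.067; log2 fold change 1.03, SE 0.35), and passed in 3 of 15 alternative settings: without vehicle library 2 (edgeR adjusted p = 0.0261), without the second library of both groups (0.0463) and with limma-voom (0.0451). Like Gata6, it reached the filter's minimum in all 3 IL1B libraries but in only 1 of 4 vehicle libraries, so it was tested through the group where it is higher. Ldha, a gene that mature beta cells keep low, was spread over 21.5 to 89.9 CPM in vehicle and 24.3 to 118.9 CPM with IL1B, and its interval of -0.85 to 0.79 on the log2 scale is wider than that of any of the 6 tested members. Vim, which encodes the mesenchymal filament vimentin, stayed below the filter with 34 vehicle and 30 IL1B counts.

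**Figure D3:**
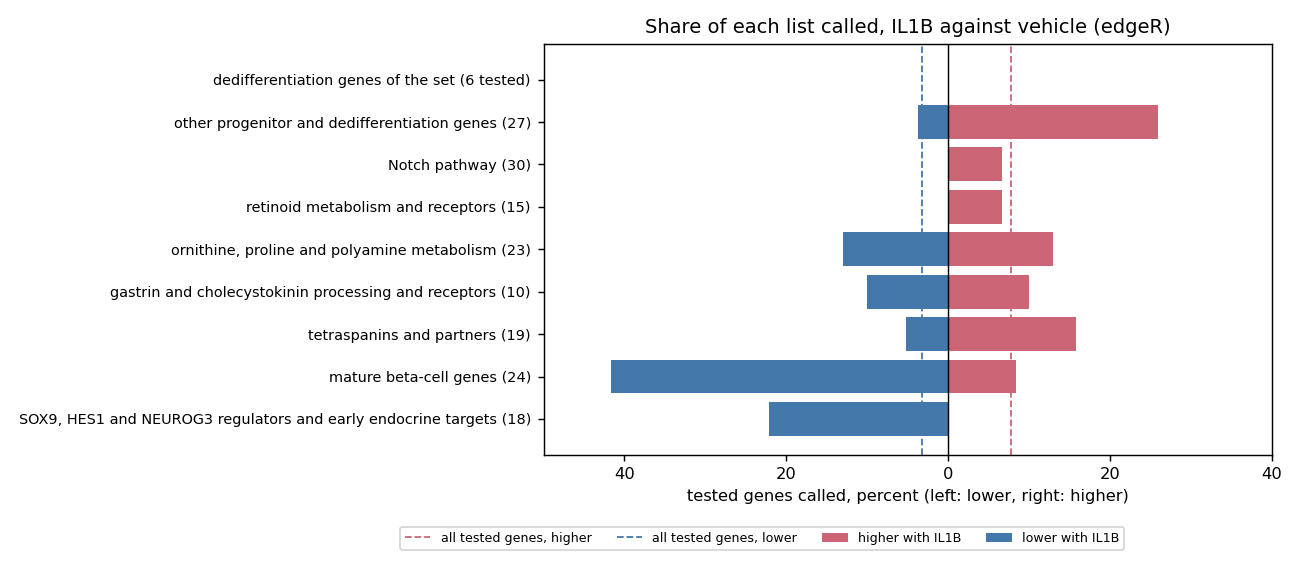
Share of the tested genes of each list (number in brackets) that edgeR called lower (left) or higher (right) with IL1B, in percent; dashed lines give the shares over all tested genes, 3.25% lower and 7.76% higher. The 6 tested dedifferentiation genes have no bar, the other progenitor genes reach 25.9% higher and the mature beta-cell genes 41.7% lower. The 25.9% counts Gata6, which passed the filter through its IL1B libraries. All lists were chosen with earlier results of these data known.

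Around Hes1, 2 of 30 tested Notch pathway genes rose, 0 fell and 28 did not pass (median log2 fold change 0.010). The 6.67% that rose is near the 7.76% over all tested genes and is not a result about the pathway. At an unadjusted p under 0.05 edgeR had 5 higher and 3 lower, where 22.6% of all tested genes were under it in either direction. DESeq2 and limma-voom also called 0 lower at the adjusted threshold. Tle3, a co-repressor that works with HES proteins, rose from 83.9 ± 4.19 to 109 ± 7.41 CPM (1.29-fold, edgeR adjusted p = 8.0e-04). The Notch ligand gene Dll1 rose 1.53-fold from 5.53 ± 0.935 to 8.54 ± 0.627 CPM (edgeR adjusted p = 0.0245), a call lost with DESeq2 (adjusted p = 0.0921), without the vehicle library 1, 3 or 4 and without IL1B library 2 or 3 (edgeR adjusted p 0.0627 to 0.113). Rbpj, the DNA-binding partner of Notch, was level at 64.5 ± 2.65 and 63.6 ± 1.45 CPM (95% interval -0.17 to 0.13 on the log2 scale). The receptor genes Notch1 and Notch2 had log2 fold changes of -0.30 and 0.57 (edgeR adjusted p = 0.298 and 0.31), the ligand gene Jag1 0.17 and the target Hey1 -0.23, none of which passed; Notch2 passed without IL1B library 1 (adjusted p = 0.0446).

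Upstream and downstream of SOX9, HES1 and NEUROG3, 18 of 30 listed genes were tested. By edgeR 0 rose, against 7.76% of all tested genes, and 4 fell (22.2%, against 3.25%). This list was chosen with earlier results of these data known, so its direction is not independent evidence. The median log2 fold change was -0.056. DESeq2 and limma-voom likewise called 0 higher and 4 lower. At an unadjusted p under 0.05 edgeR had 1 higher and 5 lower, where 22.6% of all tested genes were under it in either direction. Rfx6, an endocrine factor acting after NEUROG3, fell from 89.9 ± 1.18 to 57.1 ± 6.96 CPM (1.57-fold, edgeR adjusted p = 5.5e-06), and Insm1, another early endocrine factor, 1.27-fold from 331 ± 7.02 to 259.5 ± 9.46 CPM. Id2, an inhibitor of basic helix-loop-helix factors, fell 1.55-fold and the FGF-responsive factor gene Etv5 1.33-fold.

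Around Aldh1a3, the retinoid genes gave 1 rise and 0 falls among 15 tested (median log2 fold change 0.125). The 6.67% that rose is near the 7.76% over all tested genes and is not a result about the list. By edgeR 1 was higher and 1 lower at an unadjusted p under 0.05. DESeq2 and limma-voom also called 0 lower at the adjusted threshold. The gene that rose was Rdh12, a retinal reductase, from 2.73 ± 0.393 to 6.04 ± 0.837 CPM (2.21-fold, edgeR adjusted p = 0.0012). The sister enzymes Aldh1a1 and Aldh1a2 were as scarce as Aldh1a3: Aldh1a1 had 0 vehicle and 2 IL1B counts and Aldh1a2 had 2 and 3. The receptor gene Rara was at 5.08 ± 0.568 and 5.56 ± 0.565 CPM and did not pass (edgeR adjusted p = 0.768).

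The machinery that turns progastrin and procholecystokinin into peptides gave 1 rise and 1 fall among 10 tested genes (median log2 fold change 0.022). Over all tested genes 7.76% rose and 3.25% fell. Each 10% here is 1 gene and is not a result about the list. Tpst2, one of the enzymes that sulfate tyrosines of such peptides, fell from 63.9 ± 6.18 to 48.0 ± 2.16 CPM (1.33-fold, edgeR adjusted p = 0.0021). Pcsk1n, an inhibitor of the prohormone convertase, rose 1.20-fold (edgeR adjusted p = 0.047) with overlapping groups, and lost its call in 9 of 15 alternative settings. Its log2 fold change was 0.26, and 0.12 without IL1B library 2 (edgeR adjusted p = 0.344). The convertase gene Pcsk1, at 379 ± 9.40 CPM in vehicle, had a log2 fold change of -0.076 and did not pass (edgeR adjusted p = 0.442). Cckbr, the receptor that binds gastrin and cholecystokinin alike, was at 3.28 ± 0.447 and 3.90 ± 0.413 CPM (edgeR adjusted p = 0.621).

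Among the tetraspanins and their partners, the family of Cd81, 3 of 19 tested genes rose (15.8%, against 7.76% of all tested genes). Only 1 fell (5.26%, against 3.25%), and the median log2 fold change was 0.053. With so few genes called, these shares are not a result about the family. Cd82 more than doubled, from 21.3 ± 1.32 to 46.6 ± 4.77 CPM (2.19-fold, edgeR adjusted p = 3.8e-08). Tspan12 rose 1.82-fold and Tspan13 1.14-fold, and Tspan5 fell 1.24-fold; the Tspan13 call was lost in 6 of 15 alternative settings, among them that without IL1B library 2 (edgeR adjusted p = 0.0822). Cd9 and Cd63, other tetraspanin genes, had log2 fold changes of 0.077 and 0.082 and did not pass (edgeR adjusted p = 0.772 and 0.488).

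Around Oat, 3 of 23 tested genes of ornithine, proline and polyamine metabolism rose and 3 fell (13% each, median log2 fold change 2.2e-04). Over all tested genes the shares were 7.76% higher and 3.25% lower. As the list was chosen with earlier results of these data known, its shares are not independent evidence. Odc1, the enzyme that competes for ornithine and starts polyamine synthesis, rose 1.79-fold: vehicle libraries read 384.1, 375.5, 372.3 and 373.0 CPM and IL1B libraries 604.7, 759.3 and 653.2 CPM (edgeR adjusted p = 1.4e-08; log2 fold change 0.84, SE 0.066). Azin1, which protects the Odc1 protein from breakdown, rose 1.14-fold. The arginine transporter gene Slc7a1 rose 1.34-fold from 188 ± 19.3 to 251 ± 2.42 CPM, while its relative Slc7a2 fell 1.36-fold from 269.7 ± 27.8 to 197 ± 7.98 CPM. Glul, the glutamine synthetase gene, fell 1.32-fold and Gatm, which uses arginine for creatine, 1.19-fold (edgeR adjusted p = 0.0497). The calls of Azin1 and Gatm were each lost in 8 of 15 alternative settings, for both also without IL1B library 2 (edgeR adjusted p = 0.125 and 0.255), and for Gatm without vehicle library 2 (0.058) and without the second library of both groups (0.136).

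Of 24 tested mature beta-cell genes, 10 fell (41.7%, against 3.25% of all tested genes) and 2 rose (8.33%, against 7.76%). The other 12 did not pass, and the median log2 fold change was -0.16. This list overlaps one whose fall in these data was already known, so its direction is not independent evidence. The hormone genes Ins1, Ins2 and Iapp did not pass, with log2 fold changes of 0.114, 0.079 and 0.144 (edgeR adjusted p = 0.1955, 0.416 and 0.11). Pdx1, a regulator of the insulin genes, read 352.9, 359.1, 357.5 and 344.8 CPM in vehicle and 248.1, 237.9 and 232.5 CPM with IL1B, and Mafa, a factor of mature beta cells, 204.8, 220.5, 202.0 and 216.1 CPM against 150.5, 152.1 and 152.5 CPM. In neither gene did the groups overlap. Isl1 and Foxa2, further islet transcription factors, fell by 0.59 and 0.64 on the log2 scale, and Neurod1, an endocrine factor downstream of NEUROG3, fell 1.23-fold. The potassium channel gene Kcnj11 rose 1.48-fold from 116 ± 3.73 to 173 ± 0.291 CPM. Ucn3, a late maturation marker, was scarce, with 30 vehicle and 15 IL1B counts, and stayed below the filter. The number of rises was 6 without the second vehicle library, 4 without the second IL1B library and 7 without both, and the number of falls stayed between 8 and 12.

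Markers of the labelled cell type were abundant, and all 8 beta-cell markers were tested. Their sum was 31000 to 36400 CPM in vehicle and 34500 to 35700 CPM with IL1B. Ins2 made up most of it (21180 and 22370 CPM by group means), so the sum says little about the other markers. Of the 8, Pdx1 and Mafa fell (25%, against 3.25% of all tested genes) and 0 rose. Both are also counted in the mature list, so this share is not independent evidence. Summed over 8 duct markers, the level was 71.3 to 80.3 CPM in vehicle and 79.8 to 85.7 CPM with IL1B, with the duct keratin gene Krt19 at 0 vehicle and 4 IL1B counts; Krt8 made up 52.3 and 60.0 CPM of the group means. Sums over 7 leukocyte markers were 4.08 to 4.85 and 4.55 to 5.68 CPM, over 7 stromal markers 3.53 to 6.17 and 2.77 to 4.22 CPM, and over 5 endothelial markers 2.11 to 4.08 and 3.93 to 5.98 CPM. Among 9 acinar markers 4, Cpa1, Ptf1a, Prss2 and Rbpjl, were at 0 in all 7 libraries, and the sum was 50.0 to 62.9 CPM in vehicle and 43.4 to 48.0 CPM with IL1B, most of it Bhlha15 (48.5 and 41.2 CPM). Markers of other islet hormone cells summed to 580 to 640 CPM in vehicle and 536 to 593 CPM with IL1B. Most of that sum was Gcg (311.5 and 267 CPM by group means) and Sst (288 and 293 CPM). Of the 4 tested, only Irx2 fell, 1.77-fold (25%, against 3.25% of all tested genes). That 25% is 1 gene and is not a result about the list. Gcg, Sst and Irx1 did not pass (edgeR adjusted p = 0.0887, 0.8755 and 0.905). In these bulk samples fewer cells of a type and less RNA per cell cannot be told apart. The part of these differences in the values above was not tested.

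**Figure D4:**
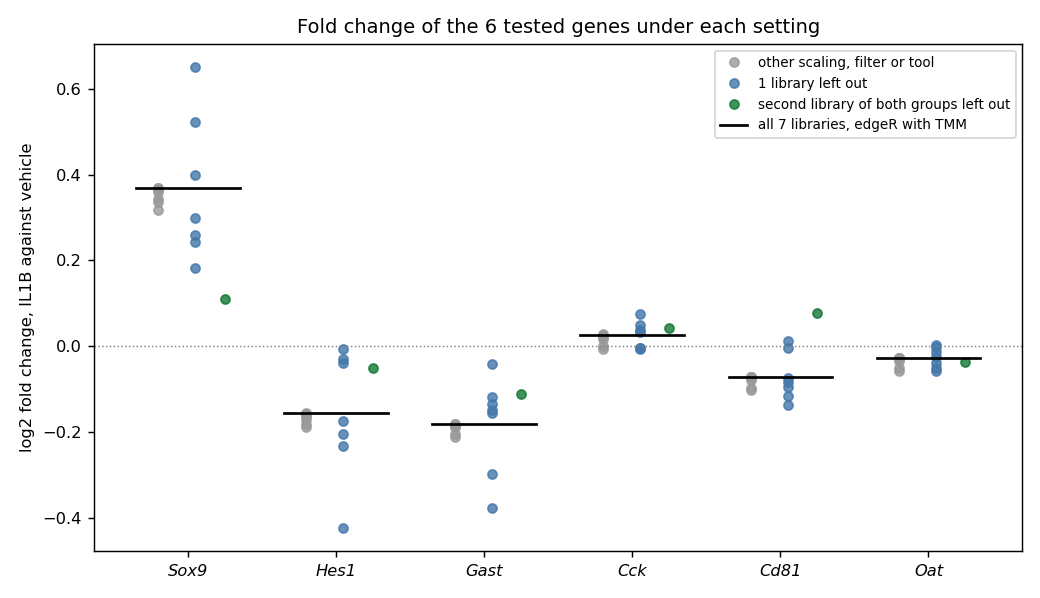
Log2 fold change of IL1B against vehicle (vertical axis) of the 6 tested genes under each setting: black lines show the fit over all 7 libraries, grey points other scalings, filters or tools, blue points fits with 1 library left out and green points fits without the second library of both groups. Sox9 ranged from 0.11 to 0.65 and Oat only from -0.059 to 0.0033, and no point passed the threshold.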

How the data were processed

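RNA was measured in 7 Beta-TC6 samples. The values are raw counts by gene symbol, in 1 table that the authors deposited; per the submitters' processing notes the build is mm10 and the tools named, without roles, include STAR, RSEM, HOMER, DESeq2 and R 4.1.0. No source used here says which of them counted these reads, with which annotation or strand setting. Vehicle columns match the sample titles. IL1B columns are numbered 1 to 3 and the titles 1, 3 and 4, so these columns were assigned to the group only.

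The test was the edgeR 4.0.16 quasi-likelihood F test in R 4.3.3 (filterByExpr, which left 12480 genes, scaling by TMM, all 7 libraries, adjusted p under 0.05), and the pipeline was checked on simulated counts. CPM are counts scaled to a TMM-adjusted total of 1000000 in tested genes, and the SE was taken from the fold change and its F value. Positions and merged exon lengths come from GENCODE M21 (GRCm38). No member's longest transcript matched another gene's at 95% identity or more, except Neurog3, 18.5% of which matches Fam241b. The fold needed for a call uses the largest unadjusted p called, 0.0055, and refers to the estimate at the fitted SE. Alternatives were other scalings, filters, DESeq2 1.42.0, limma-voom (limma 3.58.1) and libraries left out.

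The members and lists were chosen with earlier results of these data known. Named are the 8 members, up to 4 called genes with the smallest adjusted p from each list, and the genes listed by name in the rule (Mycl is Mycl1 in the table). Sox11, Mt2, Onecut2, Azin1, Gatm, Pcsk1, Aldh1a2, Krt8, Krt19, Bhlha15, Irx2, Irx1, Gcg and Sst were added after their values were seen, as were the searched motifs.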

Additional observations from a re-analysis of the deposited data

Results flagged for a closer look

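In 4 of 51 genes checked, 1 vehicle library lay far from the other vehicle libraries by Dixon's test, where chance alone flags about 1 in 20 groups (2.6). Aldh1a3 was at 0.353 CPM in the third vehicle library, which is 2 counts, and at 0 in the others. With the others all at 0, any value above 0 would have been flagged. Its flag therefore says nothing beyond the 2 counts, and the chance number of 2.6 does not hold for such a gene. Gata6 was at 1.94 CPM in the third vehicle library, on 11 counts, against 1.11 to 1.25 in the others. Slc7a1 was at 159 CPM in the second vehicle library, against 193.7 to 200.2. Rfx6 was at 91.6 CPM in the first vehicle library, against 89.2 to 89.3, a gap of little size.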

How the results depend on the processing

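Over 15 alternative settings, 0 members were called higher and 0 lower, also with no low-count filter, where all 8 were fitted. The sign of small differences did change: Cck was -4.5e-04 with upper-quartile scaling, -0.0068 with total-count scaling and between -0.0066 and 0.076 with 1 library left out; Cd81 ranged from -0.14 to 0.013 with 1 library left out and was 0.076 without the second library of both groups; Oat ranged from -0.059 to 0.0033 with 1 library left out. Sox9, Hes1 and Gast kept their sign in every setting. Ldha ranged from -1.07 to 0.335 with 1 library left out and was 0.352 without the second library of both groups. With 1 library left out, 252 to 589 genes were lower over the whole table, with IL1B library 3 giving the fewest, and 676 without the second library of both groups, against 406; the cause was not tested. Total-count scaling gave 844 higher and 556 lower, so 60.3% of calls were higher against 70.5%. In the lists, whose alternatives were chosen after seeing the data, the other progenitor genes gave 1 to 2 falls with 1 library left out and 2 without the second library of both groups, and the mature genes gave 2 to 6 rises with 1 left out and 7 without both. No paired analysis was possible because the IL1B columns could not be tied to the numbered samples. Sox9, Hes1, Gast, Aldh1a3 and Neurog3 are limited by depth, with at most 31 counts per library.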

Other observations

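The lactate dehydrogenase gene Ldha, normally kept low in mature beta cells, varied more between libraries of the same group than any tested member did between groups. Vehicle libraries read 89.9, 75.6, 53.6 and 21.5 CPM and IL1B libraries 118.9, 34.1 and 24.3 CPM. The groups overlapped, and without IL1B library 1 the log2 fold change was -1.07 (edgeR adjusted p = 0.0569). The gene was singled out after its values were seen.

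Oat and Odc1, enzymes that both use ornithine, were measured in the same libraries. Odc1 rose 1.79-fold with no overlap between groups, while the interval of Oat ended at 1.07 times the vehicle level. The difference between these changes was not tested.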
